A study of Homo sapiens with 16 samples.

Results

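The genes described here encode proteins of the red cell surface and membrane, and the receptor through which erythropoietin acts on their precursors. They are the glycophorins GYPB and GYPC, the Rh family members RHAG, RHCE and RHD, the Kell glycoprotein KEL, the anion exchanger SLC4A1 with its partner EPB42, and the erythropoietin receptor EPOR. The 9 genes were chosen by name, and every peak that shared at least 1 bp with the gene body or the 10 kb on either side of it, at a -log10 q-value of at least 2 (a q-value of at most 1%), was counted as a member peak. This gave 1149 of the 1065840 peaks in the 14 lists together, with 50 to 110 per list, and all 9 genes were among the 14881 of 19970 protein-coding genes with such a peak in at least 1 list.

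H3K27ac ChIP-seq had been performed in K562, a cell line derived from a human chronic myelogenous leukemia with erythroid features, grown without treatment and fixed before chromatin was prepared. In the fixed series, 0.25 µg of antibody was incubated with 7 amounts of chromatin, from 0.31 to 20 µg in steps of a doubling, giving relative titers of 32, 16, 8, 4, 2, 1 and 0.5, where titer 1 is the ratio of antibody to chromatin that the study took as optimal. In the normalized series, the same 7 amounts of chromatin received antibody at titer 1. Libraries are named by chromatin amount and titer, so that 10-T1a and 10-T1b are the libraries of 1 condition, from the fixed and the normalized series. Each series had its own input library, and each condition was sequenced once within a series. Within the fixed series titer falls as chromatin rises, so the effects of titer and chromatin amount cannot be told apart there. Nor can a difference between the series be told apart from a difference in input or preparation. All libraries come from 1 cell line, so that p-values describe the spread between libraries and not between cultures. The lists hold no read counts, and the library depths that the study tabulates elsewhere were not used here. The q-value limit of 1% is stricter than that of the lists as deposited.

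Acetylation of lysine 27 of histone H3 marks active promoters and enhancers, and long acetylated domains are known around genes that define a cell type. In maturing red cells, the glycophorins carry most of the sialic acid of the surface, the Rh proteins and the Kell glycoprotein carry blood group antigens, and the anion exchanger exchanges chloride for bicarbonate and anchors the membrane to the spectrin skeleton through ankyrin. The erythropoietin receptor signals through the kinase JAK2 to the transcription factor STAT5, and GATA1, which binds the letters GATA in DNA, is the best known activator of such genes. As a check of the cell line, all 10 erythroid marker genes (GATA1, TAL1, GFI1B, NFE2, LMO2, HBG1, HBG2, HBZ, HBA1 and HBA2) had a peak in their windows in all 14 lists, with a median covered share of 29.9% to 83.0%. Of 5 markers of other tissues (ALB, INS, NEUROD1, MYT1 and MYOD1), INS, NEUROD1 and MYOD1 had no peak in any list, ALB had one in 4 lists and MYT1 in all 14, at a covered share of at most 2.31%. Lymphoid and myeloid markers were mixed: the lymphoid markers CD3D and CD79A and 3 of 4 monocyte and neutrophil markers (CD14, ELANE and FCGR3B) had a peak in all 14 lists, while 2 lymphoid markers (MS4A1 and PAX5) and MPO had none. These windows can hold other genes, whose part in the marker peaks was not tested.

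Peaks covered very different shares of the 9 windows. Covered share is the percentage of the bases of a window, gene body and flanks, that lie inside peaks of 1 list. GYPC had the largest median over the 14 lists, 41.5%, followed by EPOR at 30.6% and RHAG at 25.2%, and in each of these 3 genes the covered share exceeded that of the next gene in all 14 lists. GYPB (10.4%) and RHCE (9.33%) did not differ in a constant direction. GYPB was higher in 6 of 14 lists, all of the normalized series, and lower in every list of the fixed series. RHD (8.78%), KEL (6.22%) and SLC4A1 (5.69%) followed. KEL was above SLC4A1 in 7 of 14 lists, all of the fixed series, and below it in every list of the normalized series. The order by medians over 14 lists thus pools series in which these pairs stood differently. EPB42 was last at 1.17% and below SLC4A1 in all 14 lists. The median of the 9 genes' mean covered share was 9.21%, against 5.93% over all 14881 genes.

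**Figure D1:**
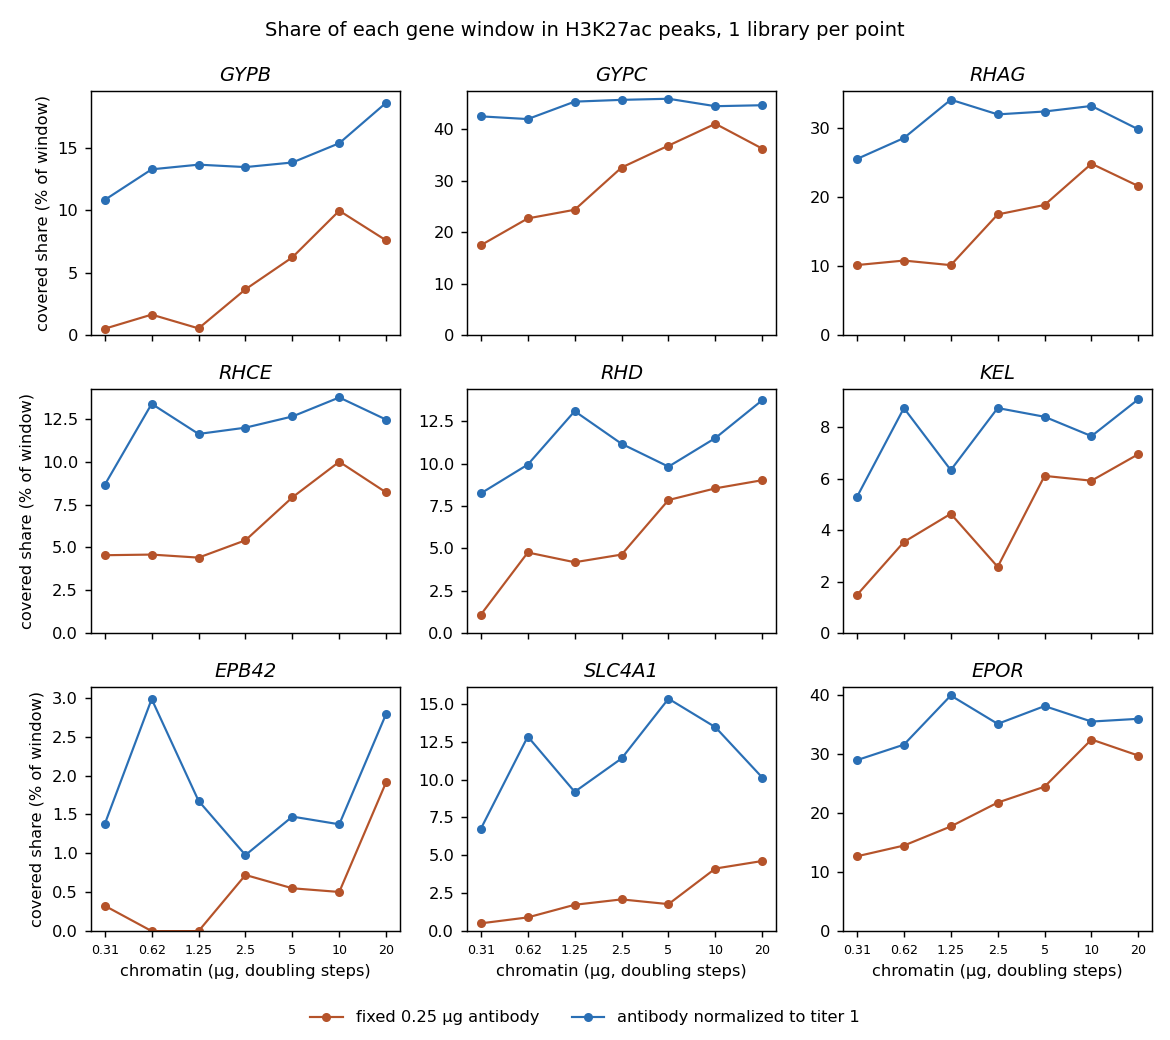
Covered share of each gene window (percent of bases in peaks, vertical axes start at 0 and differ in scale) against the amount of chromatin in µg, in doubling steps; each point is 1 library. In all 9 genes the normalized series lies above the fixed series at every amount, and the fixed series is lowest at 1 of the 3 smallest amounts.

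Promoter peaks also differed between the genes. A peak lay within 1 kb of a transcription start site (TSS) in all 14 lists for GYPC, RHAG, RHCE, KEL and EPOR, which is 5 of 9 genes, beside 52.0% of the 15813 genes with a TSS in the table used. RHD and SLC4A1 had one in 13 lists, GYPB in 11 and EPB42 in 10. The peaks missing for RHD, SLC4A1, GYPB and EPB42 were all in libraries of a titer over 1. Strand-specific start sites came from RefSeq promoters of GRCh38.p14, which matched 8 of the 9 genes. SLC4A1 had no entry, and the end of its gene model was used as its TSS. To show where the marked sequence lies, the 250 bases upstream of the TSS are given 5′ to 3′ for 6 genes: GYPC, RHAG, KEL and EPOR, in which a peak reached this stretch in 12 to 14 lists, and RHD and GYPB, in which none did in any list. Capitals mark AGATAA and CACCC on either strand, so that TTATCT and GGGTG are also marked.
GYPC, chr2:126655908-126656157, plus strand: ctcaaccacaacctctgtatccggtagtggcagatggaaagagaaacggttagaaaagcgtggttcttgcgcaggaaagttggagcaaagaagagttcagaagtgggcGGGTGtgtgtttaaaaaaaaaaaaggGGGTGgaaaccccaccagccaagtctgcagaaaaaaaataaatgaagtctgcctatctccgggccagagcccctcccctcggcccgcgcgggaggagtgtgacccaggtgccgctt
RHAG, chr6:49636840-49637089, minus strand: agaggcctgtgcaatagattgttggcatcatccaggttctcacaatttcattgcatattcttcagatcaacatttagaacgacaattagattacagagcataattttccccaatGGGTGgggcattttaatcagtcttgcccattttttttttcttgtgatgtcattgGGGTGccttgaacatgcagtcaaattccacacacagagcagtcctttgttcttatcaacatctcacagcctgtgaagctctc
KEL, chr7:142962364-142962613, minus strand: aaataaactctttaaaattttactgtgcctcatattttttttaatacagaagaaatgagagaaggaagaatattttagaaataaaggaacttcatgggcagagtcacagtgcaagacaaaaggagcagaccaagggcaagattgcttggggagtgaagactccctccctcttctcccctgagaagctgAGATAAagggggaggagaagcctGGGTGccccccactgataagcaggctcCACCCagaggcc
EPOR, chr19:11384315-11384564, minus strand: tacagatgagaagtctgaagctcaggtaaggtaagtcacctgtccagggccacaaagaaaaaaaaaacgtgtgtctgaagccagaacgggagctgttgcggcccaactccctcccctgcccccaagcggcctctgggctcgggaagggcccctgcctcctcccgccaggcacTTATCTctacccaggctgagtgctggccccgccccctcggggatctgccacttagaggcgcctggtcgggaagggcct
RHD, chr1:25272236-25272485, plus strand: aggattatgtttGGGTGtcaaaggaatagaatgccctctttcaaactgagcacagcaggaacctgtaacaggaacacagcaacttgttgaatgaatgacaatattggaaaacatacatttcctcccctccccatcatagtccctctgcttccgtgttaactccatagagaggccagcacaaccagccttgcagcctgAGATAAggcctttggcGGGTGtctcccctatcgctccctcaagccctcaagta
GYPB, chr4:144019381-144019630, minus strand: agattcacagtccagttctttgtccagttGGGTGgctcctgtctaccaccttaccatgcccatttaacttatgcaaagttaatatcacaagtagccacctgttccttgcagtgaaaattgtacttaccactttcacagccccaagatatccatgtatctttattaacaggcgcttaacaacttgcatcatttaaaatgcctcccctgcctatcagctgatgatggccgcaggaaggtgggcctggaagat

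In these windows the letters AGATAA were found for 6 of the 8 genes with an entry (GYPB, RHCE, RHD, KEL, EPB42 and EPOR), while 7.08% of 22155 promoters of protein-coding genes held them on either strand. They began 62 bases upstream of the TSS in KEL, 53 bases upstream in RHD and, as TTATCT, 78 bases upstream in EPOR. In GYPB they lay 34 to 39 bases upstream of a second annotated TSS, across the end of the stretch printed. CACCC or its complement was found for 7 genes, all but EPOR, against 58.4% of promoters. CAGNTG was found for GYPB, GYPC and EPOR, against 40.2%, and GGGCGG for GYPC and EPOR, against 53.7%. The gene counts are over 11 windows, since some genes have more than 1 TSS, while the shares are per promoter. The share of G and C was 40% to 54% in these windows, and 62% in that of EPOR. Its median over all promoters was 62%, and the motif counts were not adjusted for it. The sequence matches say nothing of binding. RHD and RHCE are near-identical copies: from a TSS of each gene, 248 of 250 upstream bases were identical in an alignment, so that these windows are not independent. Reads from the pair, as from GYPB and its relative GYPE, can be placed on the wrong copy. The study kept only read pairs with at least 1 uniquely mapped end, so such reads can also be lost. Whether the absence of peaks from the RHD and GYPB stretches reflects this was not tested. At these RHCE start sites a peak reached the upstream 250 bases in 1 or 2 lists, and in RHD in 0 lists, although peaks lay within 1 kb. In GYPC, in contrast, at least 11 of the 250 bases lay in a peak in every list and the median was 250.

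Titer in the fixed series was the first comparison. The question was whether the amount of antibody relative to chromatin alters what is recovered around these genes. Covered share fell with log2 titer in 8 of 9 genes (exact permutation test over 5040 pairings, two-sided, adjusted p under the 0.05 limit over 14563 genes), with EPB42 not passing. Over all genes 51.9% fell in this test and 28 genes rose, and the median r of the 9 genes was -0.917 against -0.833 over all genes, so that the 8 members are to be read against this genome-wide fall. Since chromatin rises as titer falls, these values describe both.

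EPOR had the Pearson correlation farthest from 0. From titer 32 down to titer 0.5, its covered share was 12.7%, 14.5%, 17.7%, 21.8%, 24.5%, 32.4% and 29.7%. Each step down to titer 1 was thus higher than the one before. With log2 titer over the 7 libraries, Pearson's r was -0.966 (p = 0.00159 by exact permutation, adjusted p = 0.0120). The rank correlation, Spearman's rho, came to -0.964 (p = 0.00278 by exact permutation). Leaving out titers 32 and 0.5, the outermost libraries, gave an r of -0.979 (p = 0.0167 by exact permutation). KEL was less regular, with 1.48%, 3.54%, 4.63%, 2.57%, 6.10%, 5.92% and 6.95% in the same order. Its r of -0.867 had p = 0.0175 by exact permutation (adjusted p = 0.0384), with a rho of -0.857 (exact permutation test, p = 0.0238). Between titers 16 and 1 alone r was -0.649 (exact permutation test, p = 0.250). With 5 libraries over a narrower range of titer, this cannot show on which libraries the relation in KEL depends. The RHD relation also missed 0.05 without titers 32 and 0.5 (r = -0.872, exact permutation test, p = 0.0833). EPB42 had no peak at titers 16 and 8 and 0.326% to 1.92% in the other 5 libraries (r = -0.749, exact permutation test, p = 0.0349, adjusted p = 0.0613, n = 7; rho = -0.739, exact permutation test, p = 0.0706; without the 2 outermost libraries r = -0.737, exact permutation test, p = 0.200).

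In the normalized series titer was held at 1, so antibody rose together with chromatin and their effects cannot be told apart. No gene of 14568 passed the adjustment there in the exact permutation test, and 2935 genes had an unadjusted p under 0.05. GYPB was the only one of the 9 genes among these. GYPB covered share was 10.8%, 13.3%, 13.6%, 13.4%, 13.8%, 15.3% and 18.6% from 0.31 to 20 µg (r = 0.898, exact permutation test, p = 0.00159, adjusted p = 0.120, n = 7; rho = 0.964, exact permutation test, p = 0.00278; without the 2 outermost libraries r = 0.822, exact permutation test, p = 0.0667). The other 8 genes had r of 0.083 (EPB42) to 0.655 (RHD) and adjusted p of 0.334 to 0.907. The 0.31 µg library was the lowest of the series in 7 of 9 genes, the exceptions being GYPC and EPB42. Its list was also the smallest of the series, at 54.4 Mb covered beside 65.0 to 75.3 Mb in the others. In the study's mapping results this library had the lowest share of uniquely mapped pairs and the lowest complexity of the series. In how many of all genes it was the lowest was not counted.

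At equal chromatin amount, the normalized library covered more than the fixed library in all 9 genes at all 6 amounts at which titer differed. Over all genes 41.7% did so, and the median of the mean differences was 9.0 percentage points in the 9 genes and 1.5 over all genes. The mean difference was 16 points in GYPC, 15.6 in RHAG, 14.8 in EPOR, 10.6 in GYPB, 9.0 in SLC4A1, 5.95 in RHCE, 5.75 in RHD, 3.55 in KEL and 1.29 in EPB42. Each gene had p = 0.0312 in the exact sign-flip test, the smallest that 64 sign patterns can give, and adjusted p = 0.0738, and no gene of the genome passed the adjustment (6298 had an unadjusted p under 0.05). With regions nearer the TSS of another gene removed, an alternative chosen after the data were seen, all 9 genes were still higher at all 6 amounts, with mean differences of 1.29 (EPB42) to 16 points (GYPC).

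The libraries of 10 µg had the same titer, and they differed as well. Covered share was higher in 10-T1b than in 10-T1a in all 9 genes, beside 60.1% of all genes. The difference was 9.33 points in SLC4A1 (4.13% against 13.5%), 8.38 in RHAG (24.9% against 33.3%), 5.40 in GYPB (9.95% against 15.3%), 3.75 in RHCE, 3.41 in GYPC, 3.04 in EPOR, 2.97 in RHD, 1.73 in KEL and 0.870 in EPB42. In GYPB, GYPC, RHCE and EPOR, 4 of 9 genes, the difference at each of the other 6 amounts was larger than that at 10 µg, as it was in 31.3% of all genes. In SLC4A1 it was larger at 2 of 6 amounts, so that most of its matched differences were no larger than that between libraries of 1 condition.

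**Figure D2:**
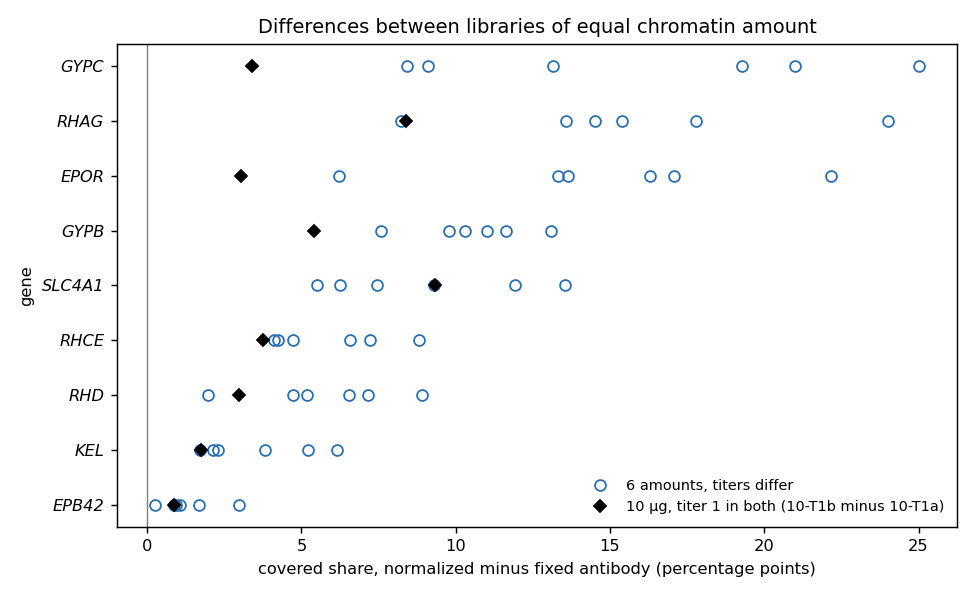
Covered share in the normalized library minus that in the fixed library of equal chromatin amount (percentage points), per gene; open circles are the 6 amounts at which titer differed, filled diamonds the difference at 10 µg, where both libraries had titer 1. In GYPC the circles lie between 8.43 and 25.0 points and the diamond at 3.41, and in SLC4A1 the diamond at 9.33 lies among the circles.

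A single model over all 14 libraries held a slope per doubling of titer, a slope per doubling of chromatin and a difference between the series (limma, Benjamini-Hochberg adjusted over 14881 genes). Titer varied only in the fixed series, where it falls as chromatin rises. The titer slope thus rests on straight lines and on a chromatin slope shared by both series, which was not tested. The titer slope passed below 0 in 1 of 9 genes, GYPC, where covered share fell by 3.34 percentage points per doubling (95% confidence interval -4.97 to -1.70, adjusted p = 0.0398), beside 2.88% of all genes. The call for GYPC held without 5-T2, 20-T0.5, 0.31-T1 or 5-T1 and was lost without any 1 of the other 10 libraries (adjusted p of 0.0516 to 0.118), in the gene body alone (adjusted p = 0.0730), with chromatin amount as a block (adjusted p = 0.0652) and without both libraries of 0.31 µg (adjusted p = 0.0896). On log2 of covered bases plus 1000, 5 of 9 genes passed (GYPC, EPOR, GYPB, RHAG and RHD, adjusted p of 0.00413 to 0.0225), beside 2962 of the 14881 genes. With flanks of 50 kb, where 1002 genes fell over the genome, RHD passed beside GYPC (adjusted p = 0.0441). When covered bases were scaled to the covered length of each list, GYPC was not called (adjusted p = 0.135) and GYPB was (adjusted p = 0.0378). Over the genome 382 genes fell under this scaling. The slope was -2.39 points in EPOR (adjusted p = 0.0839; 0.0366 without 0.31-T1) and -1.81 in RHAG (adjusted p = 0.140), and -0.05 to -0.67 in the other 6 genes. The median slope was -0.57 in the 9 genes and -0.24 over all genes. No gene of the 9 passed for chromatin, beside 2.83% of all genes that rose. The nearest was GYPB, at 0.99 points per doubling (adjusted p = 0.06; 0.0496 without 10-T1a), and the medians were 0.58 in the 9 genes and 0.24 over all genes.

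The difference between the series passed in 7 of 9 genes, all higher in the normalized series, beside 17.7% of all genes, with a median of 7.53 points in the 9 genes and 0.74 over all genes. The estimates were 10.9 points in RHAG (95% confidence interval 6.56 to 15.3, adjusted p = 0.00352), 8.95 in SLC4A1 (5.95 to 12.0, adjusted p = 0.00143), 8.70 in GYPB (6.37 to 11.0, adjusted p = 0.000454), 8.34 in EPOR, 7.53 in GYPC, 4.76 in RHCE and 4.02 in RHD. KEL (2.48 points, adjusted p = 0.0583) and EPB42 (0.84 points, adjusted p = 0.223) did not pass. At 10 µg and titer 1, the observed difference was above the estimate in SLC4A1 (9.33) and EPB42 (0.870). It was below the estimate in the other genes, among them EPOR (3.04) and GYPC (3.41). Without 20-T0.5, the only library below titer 1, GYPC, RHCE, RHD and EPOR were no longer called (adjusted p of 0.0603 to 0.203) and 3 genes (GYPB, RHAG and SLC4A1) were. GYPC was also not called without 5-T1 (adjusted p = 0.0527) nor RHD without 20-T1 (adjusted p = 0.0673), and KEL was called without 0.62-T1 (adjusted p = 0.0403), at a -log10 q of at least 3 (adjusted p = 0.0241) and with flanks of 50 kb (adjusted p = 0.0325). In the gene body alone GYPC (adjusted p = 0.0513) and SLC4A1 (adjusted p = 0.0626) were not called, and on log2 of covered bases GYPC (adjusted p = 0.102) and RHD (adjusted p = 0.104) were not. This left 5 genes under either setting, beside 1630 genes of the genome in the gene body and 1844 on log2 of covered bases. With the scaling to list length, RHAG, RHCE and SLC4A1 were called, beside 412 genes of the genome. The lists themselves covered 32.8 to 65.3 Mb in the fixed series and 54.4 to 75.3 Mb in the normalized series.

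**Figure D3:**
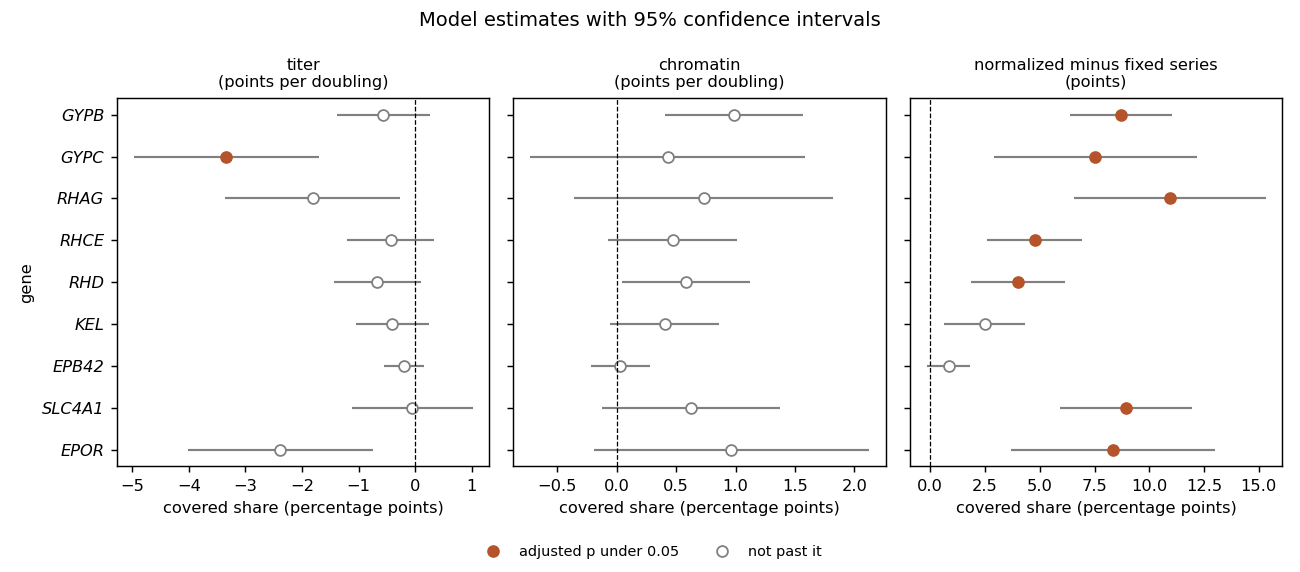
Model estimates for the 9 genes in percentage points of covered share, with 95% confidence intervals, for a doubling of titer, a doubling of chromatin and the difference between the normalized and the fixed series; filled points had an adjusted p under 0.05. GYPC is the 1 filled point for titer, none is filled for chromatin, and 7 are filled for the difference between the series.

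Without any model, libraries of titer 1 or less and libraries of a higher titer did not overlap in 6 genes. Those of a higher titer are all fixed-series libraries of at most 5 µg. Titer, series and chromatin amount can therefore not be told apart in this split. All 9 libraries of titer 1 or less lay above all 5 libraries of a higher titer in GYPB, RHAG, RHCE, RHD, SLC4A1 and EPOR, beside 10.5% of all genes. All 7 normalized libraries lay above all 7 fixed libraries in GYPB, GYPC, RHAG and SLC4A1, 4 of 9 genes beside 5.89% of all genes.

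Both glycophorin genes were marked, GYPC over a larger share than GYPB. GYPC encodes glycophorin C, which carries the Gerbich antigens and ties the membrane to the spectrin skeleton. At titers 32, 16, 8, 4 and 2 its covered share was 17.5%, 22.7%, 24.3%, 32.5% and 36.8%, and in the 9 libraries of titer 1 or less it was 36.2% to 45.9% with a median of 44.4%. These groups overlapped in 1 place, between 5-T2 and 20-T0.5. The number of peaks did not follow: there were 19, 23, 20, 20 and 17 peaks at titers of 32 to 2 and 12 to 20 at titer 1 or less. Of its 20 merged regions (peaks of all lists joined where they shared a base), 3 had a peak in all 14 lists. They were chr2:126641753-126653416, upstream of the gene, chr2:126653900-126666991, which covers the TSS, and chr2:126669199-126679439 inside the gene, each over 10 kb long. The region over the TSS had a fold enrichment of 5.76 to 20.9 with a median of 15.3.

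GYPB encodes glycophorin B, which carries the S antigens. Its covered share was 0.509%, 1.64%, 0.534%, 3.66% and 6.22% at titers 32, 16, 8, 4 and 2, and 7.57% to 18.6% with a median of 13.4% in the libraries of titer 1 or less. The groups did not overlap, and the window held 1 peak at titer 32, 1 at titer 8 and 14 in 20-T1. None of its 15 merged regions was in all 14 lists, and all of them lay inside the gene. The leading one, chr4:144003508-144004702, lay 15240 bp downstream of the TSS and was absent only from 0.31-T32. A region at chr4:143999493-144000585 was in all 9 lists of titer 1 or less and in 1 of 5 of a higher titer. Another, chr4:144007340-144008293, named after its values were seen, was in each of the 7 normalized lists but absent from the fixed series. Its fold enrichment was 4.63 to 8.60. In the 9 windows 3 regions were of this kind, in GYPB, RHD and SLC4A1, and their share over all regions was not counted. The related gene GYPE, also named after its values were seen, had a median of 6.25% and was higher in the normalized series in the model, by 3.58 points (adjusted p = 0.0141).

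Of the Rh family, RHAG was the most heavily marked. RHAG encodes the Rh-associated glycoprotein, a channel for ammonium that the Rh antigens need to reach the surface. Its covered share was 10.2%, 10.8%, 10.2%, 17.5% and 18.9% at titers 32, 16, 8, 4 and 2, below the 21.6% to 34.2% of all libraries of titer 1 or less. Of 26 merged regions 3 were in all 14 lists. One of 11730 bp, chr6:49625896-49637625, reached from inside the gene over the TSS. The other two lay upstream, at chr6:49644574-49646376 and chr6:49646546-49649618, 8636 and 11243 bp from the TSS, with median fold enrichments of 13.1 and 11.8, and in both a peak of every list overlapped the strongest peak by at least 50% in both directions. The summit of the first varied by 165 bp (SD, n = 14). No other gene lies in this window in the RefSeq annotation. The window ends at chr6:49646839, so most of the second upstream region lies beyond it. A region inside the gene, chr6:49623275-49624879, was in all 9 lists of titer 1 or less and in none of a higher titer, at a fold enrichment of 3.32 to 6.97.

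RHCE and RHD encode the C and E antigens and the D antigen. RHCE was covered at 4.54%, 4.58%, 4.4%, 5.42% and 7.92% at titers 32, 16, 8, 4 and 2, and at 8.21% to 13.8% at titer 1 or less, without overlap. RHD was covered at 1.09%, 4.76%, 4.18%, 4.63% and 7.85%, and at 8.25% to 13.7%, also without overlap. Much of the strong signal in these windows lay at neighbours. The leading RHD region, chr1:25338334-25341085, was 67201 bp from the RHD TSS and 1376 bp from that of TMEM50A, and the leading RHCE region, chr1:25430865-25432506, was 789 bp from that of MACO1. Of 32 RHCE regions, 19 were nearer to another TSS. Without the regions nearer another gene, the median covered share was 3.31% in RHCE and 6.48% in RHD, and RHD had no peak at all in 1 list. Within RHCE, chr1:25414042-25414839 was in all 9 lists of titer 1 or less and in none of a higher titer, with fold enrichments of 4.01 in 10-T1a, 4.89 in 20-T0.5 and, over the normalized libraries, 7.83 to 11.5, and its summit varied by 17.1 bp (SD, n = 9). In contrast, chr1:25417784-25419444, 2211 bp downstream of the RHCE TSS, was in all 14 lists at 3.90 to 6.57. Within RHD, chr1:25278453-25279189 was in all 9 lists of titer 1 or less and in 1 of a higher titer.

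KEL encodes the Kell glycoprotein, a metalloendopeptidase that is linked to XK at the surface. Its covered share was 1.48% to 6.10% at a titer over 1 and 5.29% to 9.08% at titer 1 or less, so that the groups overlapped. A single region, chr7:142960990-142963827, covered the TSS, with its midpoint 46 bp upstream, and was in all 14 lists at a fold enrichment of 5.40 to 13.4. The AGATAA and CACCC letters printed above lie within it. Of the other 8 regions, 6 were in 1 list each. XK, named after its values were seen, had a median of 11.6% and a difference between the series of 9.77 points (95% confidence interval 7.79 to 11.7, adjusted p = 0.000158).

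EPB42 was covered little in both series, and SLC4A1 in the fixed series. In the normalized series the median covered share was 11.4% in SLC4A1, beside 8.40% in KEL and 1.47% in EPB42. SLC4A1 encodes the anion exchanger, the most abundant protein of the red cell membrane, and EPB42 a peripheral protein that holds the exchanger to the skeleton. SLC4A1 covered share was 0.511%, 0.903%, 1.74%, 2.09% and 1.78% at titers 32, 16, 8, 4 and 2, 4.13% at titer 1, 4.62% at titer 0.5, and between 6.76% and 15.3% in the normalized libraries, in 3 levels that did not overlap. Its strongest peak never passed the 80th percentile of its list, at 42.6 to 79.5, while its peak number went from 1 to 4 in the fixed series to 6 to 10 in the normalized series. The region over the TSS, chr17:44267038-44270229, was in 13 lists, absent from 0.62-T16. A region at the other end of the gene, chr17:44246305-44248629, was in all 9 lists of titer 1 or less and in none of a higher titer, and chr17:44245459-44246074, 22368 bp from the TSS and also named after its values were seen, was in the 7 normalized lists alone. In the gene body alone the difference between the series was 2.98 points (adjusted p = 0.0626). EPB42 had 5 merged regions, none in all lists. The leading one, chr15:43221364-43222125, 727 bp upstream of the TSS but inside the annotated gene model, was in 9 lists, 8 of them of titer 1 or less, and EPB42 covered share reached at most 2.98%, in 0.62-T1.

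EPOR, the receptor gene, had a peak within 1 kb of the TSS in every list. A peak reached the 250 bases upstream of the TSS in 12 of 14 lists. The EPOR window of 27108 bp had 6 merged regions, 3 of which were in all 14 lists. The region over the TSS, chr19:11379717-11386029, had a fold enrichment of 9.26 to 21.1 and lay between the 88.4th and the 99.5th percentile of its list. The other 2, chr19:11374707-11375003 and chr19:11375207-11379500, were nearer to the TSS of SWSAP1, at 189 and 2688 bp, and without them and the other region nearer SWSAP1 the median covered share of EPOR was 17.8%. The r with titer in the fixed series was then -0.968.

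**Figure D4:**
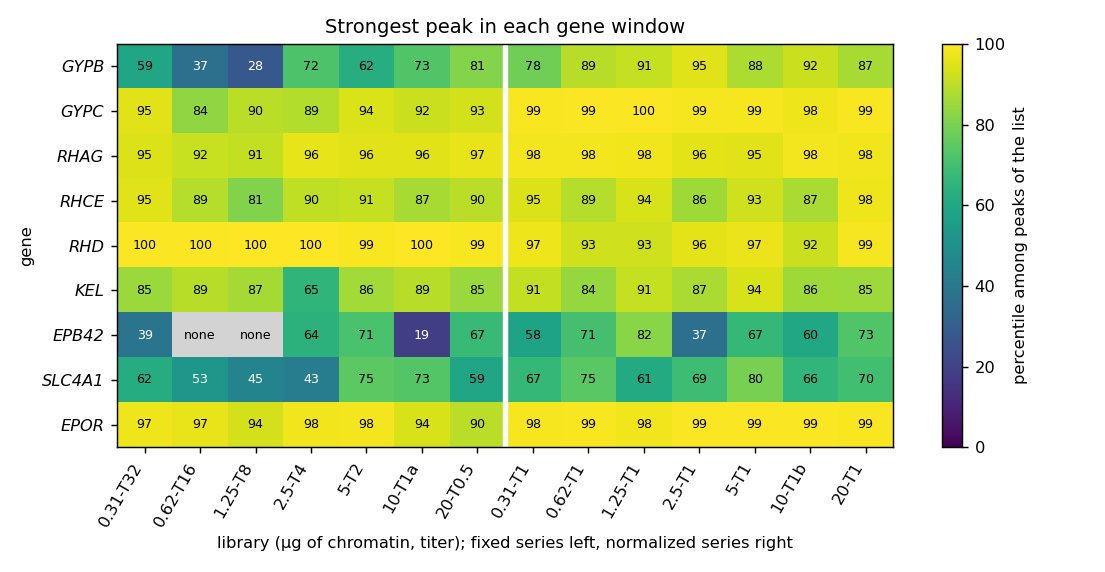
Percentile of the strongest peak in each gene window among all peaks of its list, by fold enrichment, for 9 genes and 14 libraries; grey cells had no peak. EPOR, GYPC, RHAG and RHD stay above 83 in every library, GYPB goes from 27.6 at titer 8 to 95.1 in 2.5-T1, and EPB42 is the 1 gene without a peak in some libraries.

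Peak strength within a list did not follow covered share in every gene. Across the 14 lists the strongest GYPC peak lay at percentiles of 83.5 to 99.5, that of RHAG at 90.7 to 98.4 and that of KEL at 65.3 to 94.1. The percentile of GYPB was 27.6 to 72.0 at a titer over 1 and 72.9 to 95.1 at titer 1 or less. The RHD window went the other way: its strongest peak, in 13 of 14 lists the one near TMEM50A, lay at 99.0 to 99.9 in the fixed series and at 92.0 to 98.8 in the normalized series, while its covered share rose. Fold enrichment was not normalized between lists, and these percentiles were not tested.

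Taking all windows, the 9 genes held 155 merged regions. Of these 14 were in all 14 lists, 9.03% beside 10.8% of all 170284 regions, and 50 were in a single list, 32.3% beside 46.3%. A further 6 were in all 9 lists of titer 1 or less and in at most 1 of the 5 lists of a higher titer, beside 0.388% of all regions. These 6 lay in GYPB, RHAG, RHCE (2 regions), RHD and SLC4A1. The median width of the peaks in the windows was 314 to 577 bp per list, with the largest in 5-T1. Exon and intron positions were not used here.

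**Figure D5:**
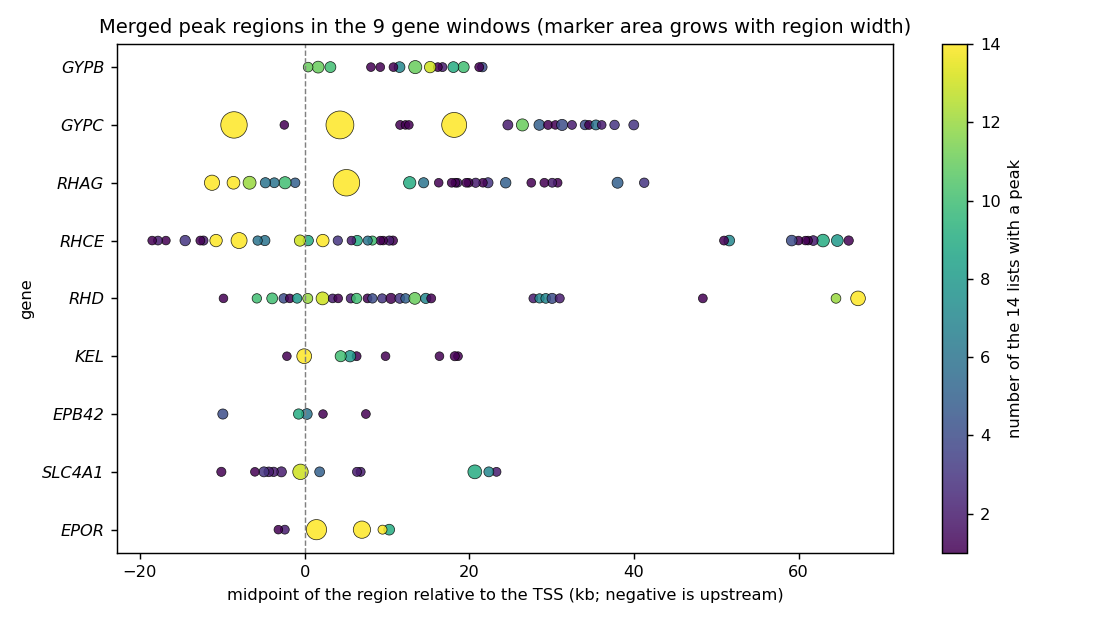
Merged peak regions of each gene by the distance of their midpoint from the TSS in kb (negative is upstream, dashed line at the TSS); colour gives the number of the 14 lists with a peak and marker area grows with region width. The largest markers, in GYPC and RHAG, are in all 14 lists, GYPB has none in all 14, and the RHD region in all 14 lies 67201 bp from its TSS.

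Other genes of the same membrane behaved as follows in the model. Over all genes 2.88% fell with titer and 17.7% were higher in the normalized series, with medians of -0.24 and 0.74 points. Of 14 genes of the membrane skeleton and its anchors, none passed for titer, with a median slope of -0.78 points. In this list 3 genes rose in the normalized series, with a median difference of 2.25 points. Of 20 other blood group carriers, 19 were tested, 1 fell with titer (ICAM4, an adhesion molecule that carries the Landsteiner-Wiener antigens, -4.72 points, adjusted p = 0.0317) and 7 rose in the normalized series, with medians of -0.64 and 3.58 points. Of 8 genes of erythropoietin signalling, the phosphatase gene PTPN6 (-5.96 points, adjusted p = 0.027) and STAT5A (-5.14 points, adjusted p = 0.027) fell with titer. Another 2 rose in the normalized series, and the medians of the list were -1.85 and 0.69 points. The heme enzymes had 1 of 8 falling with titer (FECH, the enzyme that inserts iron, -1.56 points, adjusted p = 0.027) and 5 of 8 higher in the normalized series with a median difference of 6.73 points, beside 7.53 in the 9 genes. No comparison between these lists was tested.

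The genes whose covered share over the 14 lists was most like that of a member, outside its window, were, for 8 of the 9 genes, CLCN4 for GYPB (Pearson's r of 0.99), SLC3A2 for GYPC (0.986), YBEY for RHAG (0.992), MYL11 for RHCE (0.985), SYCP2L for KEL (0.974), DDHD2 for EPB42 (0.912), ALOX5 for SLC4A1 (0.966) and RPL8 for EPOR (0.99). They are picked as the highest of 14881 genes and are given with no test, and all share the same libraries.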

How the data were processed

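H3K27ac ChIP-seq peaks of 14 K562 libraries were analysed. The authors aligned reads with BWA (version 0.5.9 with CASAVA 1.4 in the submitters' processing notes) and called peaks in each library with MACS2 against 1 of 2 input libraries. Per peak they deposited a position, a fold enrichment (a ratio), a -log10 p-value, a -log10 q-value and an integer score, and no read counts. The build is given as hg38 in the labels and as hg19 in the paper's methods; the positions and contig names are those of GRCh38, and no coordinate was converted. Genes and promoter sequences came from RefSeq tables of GRCh38.p14.

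Peaks with -log10 q of at least 2 were kept. Covered share was computed for the 19970 protein-coding genes of the autosomes and chromosome X and fitted for the 14881 with a peak in at least 1 list, with limma 3.58.1 (R 4.3.3, variance trend) on series, log2 chromatin and log2 titer. P-values were adjusted over all genes by the method of Benjamini and Hochberg, with a limit of 0.05. Exact permutation and sign-flip tests were computed within and between series (Python 3.11.15, numpy 2.4.6, pandas 2.3.3, scipy 1.17.1, biopython 1.88, matplotlib 3.10.9). All tests are two-sided. The steps were tested on simulated data. The depths tabulated by the study were not used here, so precision rests on the spread between libraries alone.

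The 9 genes, the gene lists and the rules were chosen with earlier results of these data known. Regions named are those with the highest mean percentile in each window, those in all 14 lists, and those in all 9 lists of titer 1 or less and at most 1 of the other 5. Of each gene list, up to 3 genes past the limit for titer are named, and genes outside these rules are marked as named after their values were seen. Alternatives were 3 other q-value settings, the gene body alone, flanks of 50 kb, log2 of covered bases with a pseudocount of 1000 bases, covered bases scaled to 1000000 bases covered in the list (log2, pseudocount 1), genes with a peak in at least 7 lists, all genes, no variance trend, chromatin amount as a block and libraries left out. The inputs entered only through the authors' peak calling. Some marker and related genes are not reported here.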

Additional observations from a re-analysis of the deposited data

Results flagged for a closer look

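One value stood apart within the 7 libraries of the normalized series. RHCE covered share was 8.66% in 0.31-T1, while the other 6 libraries held 11.6% to 13.8%, and its gap to the nearest of them was 58.2% of the whole range. Of the 9 genes tested in this way, chance alone would flag about 1 group in 20. The same library was also the lowest of the series in 6 other genes, by smaller gaps, and its list covered the fewest bases of the series. For this library the study also tabulates the lowest share of uniquely mapped pairs and the lowest complexity of the series. The part of these in the low value was not tested.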

How the results depend on the processing

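Each condition had 1 library per series, and GYPC is the only one of the 9 genes whose titer call passed. In the model 1 of 9 genes and 428 of all genes fell with titer. The count of members and of all genes that fell was 0 and 265 in the gene body alone, 2 and 1002 with flanks of 50 kb, 5 and 2962 for log2 covered bases, 0 and 50 with chromatin amount as a block, 0 and 210 without both libraries of 0.31 µg, 8 and 7556 in the fixed series alone and 0 and 0 for matched differences; over all genes it was also 677 and 1442 at a -log10 q of at least 3 and 5, and 862 without a variance trend. Leaving out each library gave 0 to 2 members and 1 (without 20-T1) to 1588 genes (without 0.31-T1). For chromatin, members were 0 to 1 on leaving out each library and 1 with flanks of 50 kb, and genes 421 in the model, 712 at -log10 q of at least 3, 103 in the gene body, 1980 with 50 kb, 15 for log2 bases, 0 when scaled to the list, 8 without 0.31 µg, 0 in the normalized series alone and 13 to 865 on leaving out each library. For the series difference, members were 3 when scaled and 3 to 8 on leaving out each library, and genes 2633 in the model, 1630 in the gene body, 4606 with 50 kb, 412 when scaled and 900 to 2714 on leaving out each library.

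Direction turned only for slopes that had not passed. The SLC4A1 titer slope was 0.0874 and 0.1245 at -log10 q of at least 3 and 5 and ran from -0.5807 (without 0.31-T1) to 0.5614 (without 20-T1) on leaving out each library, being above 0 also without 10-T1a, 20-T0.5 or 0.62-T1. The EPB42 chromatin slope was -0.1266 in the gene body, -0.0388 without both libraries of 0.31 µg and ran from -0.1499 (without 20-T1) to 0.1529 (without 0.62-T1) on leaving out each library, being below 0 also without 0.31-T1. When scaled, chromatin slopes were -0.0336 in EPB42, -0.0159 in EPOR, -0.0447 in GYPC and -0.0221 in RHAG on the log2 scale. With a reciprocal overlap of at least 50%, 4 instead of 14 member regions were in all 14 lists. The cause of these changes was not tested. The libraries carry no replicate numbers; the pairing by chromatin amount, as matched differences and as a block, is given above. The lists limit the analysis to what passed peak calling at depths not used here.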
